A study of Mus musculus with 8 samples.

Results

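The genes described here encode the enzymes, chaperones and proteases that turn newly made procollagen chains into secreted collagen. A list of 31 such genes was set against the probe sets named by exactly 1 symbol, 34945 probe sets for 18193 genes. At least 1 probe set was found for 28 of the 31 genes (49 probe sets in all). The expression of Adamts2, Adamts14 and Fkbp10 was not analysed here. The list was drawn up with the differences between Hyp and WT bone already known, so the differences and calls given here are a description of these arrays and no independent test.

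Tibia and femur of 12-day-old male mice gave the RNA, with 4 arrays per genotype, Hyp and wild type (WT). The Hyp allele lacks the 3′ part of Phex and is kept on C57BL/6, and the labels give the strain of the controls as wild type. They are a model of X-linked hypophosphatemia, in which the kidney loses phosphate and bone mineralizes poorly. Mice ate a standard diet with 0.6% calcium, 0.54% phosphate and 2200 IU of vitamin D. Each RNA combined 2 bone samples of 1 genotype, and the labels do not say how many animals these came from, so errors measure the spread between RNA samples.

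As background, fibrillar collagens are made in the endoplasmic reticulum (ER) as procollagen. There prolyl 4-hydroxylase modifies prolines, which lets the triple helix hold at body temperature, while lysyl hydroxylases prepare the sites of later cross-links. A complex of P3h1, Crtap and Ppib hydroxylates a few further prolines, isomerases and the chaperone HSP47 (gene Serpinh1) assist folding, and after secretion proteases trim both propeptides. Osteoblasts, which lay down the collagen of bone, depend on all of these steps, and inherited loss of several of the genes causes brittle bone disease.

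All values are on the log2 scale and centred for each probe set on the median of the 8 arrays, with probe sets of a gene averaged. Only differences between arrays can be read from them, and values of different genes cannot be ranked as levels. Where the genotypes do not overlap, the centring makes the highest Hyp value and the lowest WT value of a probe set mirror each other around 0. Phex itself, at 1 of its probe sets, lay between -4.93 and -3.72 in Hyp and between 3.72 and 4.00 in WT. WT replicate 3 stood apart on the second principal component (-38.4, against -10.3 to 17.5 for the other arrays) and had the highest mean of skeletal muscle markers, 2.08. Hyp replicate 2 had the lowest such mean, -1.63.

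Most of the collagen-modifying genes were lower in Hyp bone, and none was called higher (none at an unadjusted limma p under 0.05 either). Of the 28 measured genes 20 fell and 8 did not pass the threshold (limma fit over all genes, Benjamini-Hochberg adjusted p under 0.05), which is 71.4% of them lower, where 6.32% of all genes were called lower and 6.54% higher. Because the list was chosen with this contrast in view, nothing is read from that excess or from the counts in its role groups below. In bulk RNA, fewer osteoblasts and less of these transcripts per osteoblast cannot be told apart. The median difference of the 28 genes was -0.40, where the median of all genes was 0.025, and 13 of the 20 genes that fell did so by 0.5 or more. For 19 genes no Hyp array reached any WT array (67.9%, against 8.89% of all genes). Without WT replicate 3, 17 genes were lower, without Hyp replicate 2, 18, and without both, 17.

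**Figure D1:**
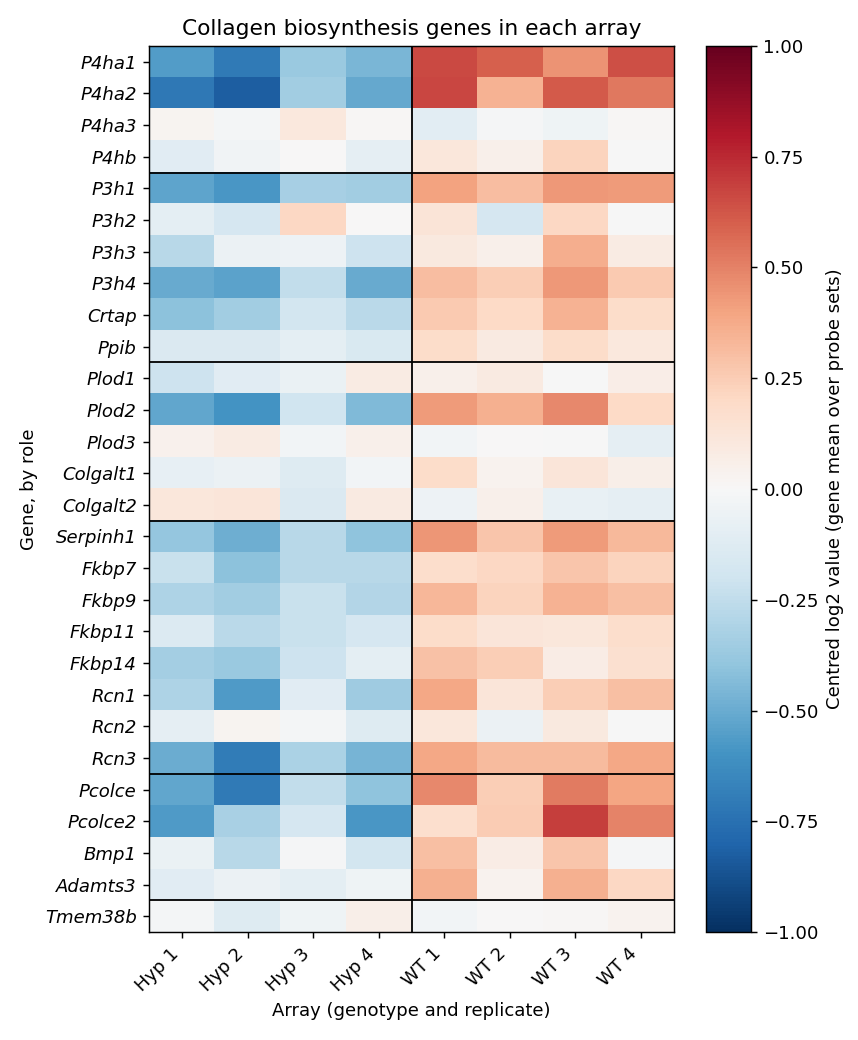
Centred log2 value (colour; blue below 0, red above 0) of the 28 measured genes (rows, grouped by role) in the 4 Hyp and 4 WT arrays (columns). P4ha1 and P4ha2 have the strongest contrast between the genotypes. The 8 genes that did not pass the threshold are P4ha3, P4hb, Plod1, Plod3, P3h2, Rcn2, Colgalt2 and Tmem38b.

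Prolyl 4-hydroxylase is a tetramer of catalytic alpha subunits (P4ha1, P4ha2 or P4ha3) with protein disulfide isomerase (P4hb) as the beta subunit. The alpha subunit genes P4ha1 and P4ha2 had the largest falls of the whole list on gene means. In Hyp replicates 1 to 4 the centred values of P4ha1 were -0.56, -0.71, -0.37 and -0.46, and in WT replicates 1 to 4 they were 0.66, 0.60, 0.45 and 0.64. Every WT array was above every Hyp array. It fell by 1.11 ± 0.08 (SE, n = 4 per group), or 2.16-fold, and both of its probe sets fell (by 1.28 ± 0.14 and 0.94 ± 0.07). The 4 Hyp arrays read -0.71, -0.83, -0.34 and -0.52 for P4ha2 (replicates 1 to 4), and the 4 WT arrays 0.66, 0.34, 0.62 and 0.53. The genotypes did not overlap here either, with Hyp replicate 3 the highest of the Hyp arrays and WT replicate 2 the lowest of the WT arrays. P4ha2 fell by 1.14 ± 0.11, or 2.20-fold.

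The other subunits did not pass. For P4hb the centred values were -0.11, -0.034, 0.0068 and -0.091 in Hyp (replicates 1 to 4) and 0.11, 0.047, 0.22 and -0.0068 in WT. Hyp replicate 3 was above WT replicate 4, so the groups overlapped, and the difference was -0.15 ± 0.06. P4hb also serves as a general disulfide isomerase of the ER. P4ha3, the third alpha subunit gene, differed by 0.068 ± 0.050 with overlapping groups. Taken within each array, P4ha1 minus P4hb averaged -0.47 ± 0.14 (SD, n = 4) in Hyp and 0.49 ± 0.18 in WT. The genotypes did not overlap, so the array values of P4ha1 and P4hb changed unequally. P4hb rests on 1 probe set, and whether the transcripts differ as much cannot be told from centred values. P4ha1 minus P4ha2 did overlap, at 0.078 ± 0.079 in Hyp and 0.048 ± 0.18 in WT.

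In the prolyl 3-hydroxylation group 5 of 6 genes fell. P3h1 is the catalytic subunit that acts on type I collagen in bone. P3h1 had centred values of -0.52, -0.58, -0.34 and -0.34 in Hyp replicates 1 to 4 and of 0.40, 0.31, 0.43 and 0.42 in WT replicates 1 to 4. The WT arrays lay close together and far above all Hyp arrays. P3h1 fell by 0.84 ± 0.07, or 1.79-fold, at both probe sets alike (0.86 ± 0.09 and 0.82 ± 0.07). Crtap is the helper protein of the same complex. In Hyp replicates 1 to 4 the centred values of Crtap were -0.41, -0.35, -0.18 and -0.27, and in WT replicates 1 to 4 they were 0.26, 0.20, 0.35 and 0.18. The groups did not overlap, and Crtap fell by 0.55 ± 0.06, or 1.46-fold.

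Ppib, cyclophilin B, is the prolyl isomerase of the complex. The 4 Hyp arrays read -0.14, -0.14, -0.098 and -0.15 for Ppib (replicates 1 to 4), and the 4 WT arrays 0.18, 0.089, 0.18 and 0.10. All Hyp arrays were below all WT arrays, though the gap was narrow. Ppib fell by 0.27 ± 0.05, or 1.21-fold. The array values of the 3 partners thus fell by different amounts. P3h1 minus Crtap was -0.14 ± 0.068 (SD, n = 4) in Hyp and 0.14 ± 0.069 in WT. P3h1 minus Ppib was -0.31 ± 0.12 in Hyp and 0.25 ± 0.048 in WT, and neither overlapped. Whether the transcripts differ as much cannot be told from centred values.

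P3h4 (older name Leprel4) encodes a protein without catalytic activity of its own that joins P3h3 in a complex of lysyl hydroxylation. For P3h4 the centred values were -0.51, -0.53, -0.25 and -0.50 in Hyp (replicates 1 to 4) and 0.31, 0.25, 0.43 and 0.26 in WT. In Hyp, replicate 3 was well above the other arrays, yet below every WT array. P3h4 fell by 0.76 ± 0.07, or 1.69-fold. P3h3 fell by 0.30 ± 0.08, with Hyp arrays from -0.28 to -0.048 and WT arrays from 0.048 to 0.36, of which WT replicate 3 was the highest. Without that array the difference was -0.23 and no longer passed (limma adjusted p = 0.0516), and it was lost without Hyp replicates 1 or 4 or WT replicates 1 or 4 as well. The only probe set of P3h3 did not pass in the fit over all probe sets (limma adjusted p = 0.0696). P3h2, the paralog known from basement membrane collagen, differed by -0.056 ± 0.097, and its Hyp and WT arrays covered nearly the same span.

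**Figure D2:**
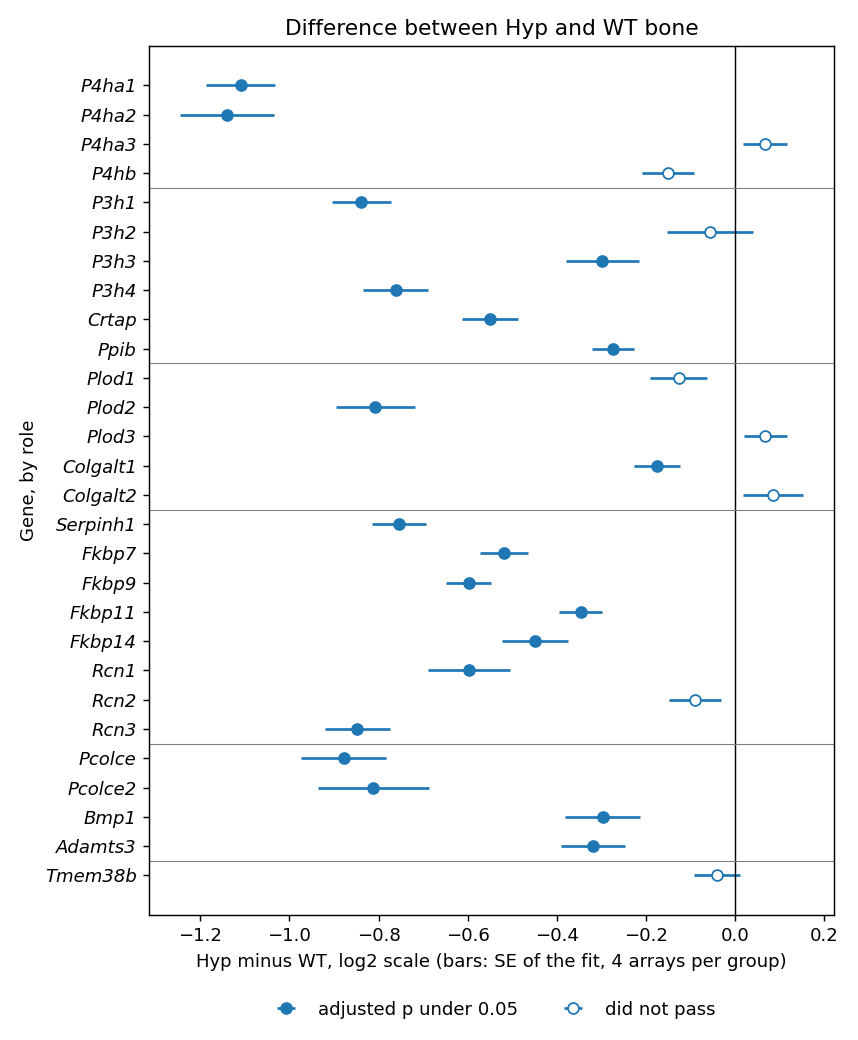
Hyp minus WT difference (log2 scale, horizontal axis) of each of the 28 genes on its mean over probe sets, with the SE of the fit as bars and 4 arrays per genotype; filled points passed the adjusted threshold. The 20 filled points lie between -1.14 and -0.17 and the 8 open points between -0.15 and 0.085.

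Among the lysyl hydroxylases only Plod2 passed. Plod2 hydroxylates lysines in the telopeptides, the sites that give the cross-links typical of bone. Plod2 had centred values of -0.52, -0.60, -0.20 and -0.44 in Hyp replicates 1 to 4 and of 0.43, 0.36, 0.48 and 0.20 in WT replicates 1 to 4. WT replicate 4 and Hyp replicate 3 were the arrays nearest to the other genotype, and the groups did not overlap. Plod2 fell by 0.81 ± 0.09, or 1.75-fold, with 0.83 ± 0.10 and 0.78 ± 0.09 at its probe sets. Plod1, the helical lysyl hydroxylase, differed by -0.13 ± 0.06, and Plod3, which also transfers glucose, by 0.068 ± 0.048, each with overlapping groups. Within arrays, Plod2 minus Plod1 was -0.36 ± 0.18 (SD, n = 4) in Hyp and 0.32 ± 0.15 in WT, and Plod2 minus Plod3 was -0.48 ± 0.22 and 0.40 ± 0.087, neither overlapping.

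Collagen galactosyltransferases add the first sugar to hydroxylysine. Colgalt1 fell by 0.17 ± 0.05, the smallest change that passed, with Hyp arrays from -0.13 to -0.030 and WT arrays from 0.037 to 0.18. Neither of its probe sets passed alone, and leaving out any single array ended the call, with differences between -0.20 and -0.15. Colgalt2 differed by 0.085 ± 0.068 with overlap. Its Hyp replicate 3, at -0.15, was apart from the other Hyp arrays.

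In the chaperone and isomerase group 7 of 8 measured genes fell. Serpinh1 encodes HSP47, a chaperone dedicated to procollagen. In Hyp replicates 1 to 4 the centred values of Serpinh1 were -0.39, -0.48, -0.27 and -0.40, and in WT replicates 1 to 4 they were 0.44, 0.28, 0.42 and 0.33. Every Hyp array was below every WT array. Serpinh1 fell by 0.75 ± 0.06, or 1.69-fold, and its probe sets fell by 0.68 ± 0.07 and 0.83 ± 0.07.

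The FKBP genes here encode prolyl isomerases of the ER. The 4 Hyp arrays read -0.31, -0.35, -0.23 and -0.30 for Fkbp9 (replicates 1 to 4), and the 4 WT arrays 0.33, 0.23, 0.35 and 0.30. The 4 arrays of each genotype spanned little. Fkbp9 fell by 0.60 ± 0.05, or 1.51-fold, at both probe sets alike (0.61 ± 0.06 and 0.58 ± 0.06). For the other 3 measured FKBP genes the probe sets disagreed, so that the gene mean understates the probe set that fell. For Fkbp7 the centred values were -0.22, -0.41, -0.28 and -0.28 in Hyp (replicates 1 to 4) and 0.17, 0.21, 0.28 and 0.22 in WT. The groups did not overlap. Fkbp7 fell by 0.52 ± 0.05 as a mean of 1 probe set at -1.04 ± 0.09 and another at -0.00041 ± 0.085. Fkbp14 had centred values of -0.34, -0.37, -0.21 and -0.099 in Hyp replicates 1 to 4 and of 0.30, 0.25, 0.073 and 0.16 in WT replicates 1 to 4. WT replicate 3 and Hyp replicate 4 were closest to each other. Fkbp14, whose loss causes a form of Ehlers-Danlos syndrome, fell by 0.45 ± 0.07, with 1 probe set at -0.97 ± 0.08 and the other at 0.076 ± 0.11.

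Fkbp11 encodes a membrane-bound FKBP of secretory cells. In Hyp replicates 1 to 4 the centred values of Fkbp11 were -0.13, -0.27, -0.22 and -0.17, and in WT replicates 1 to 4 they were 0.18, 0.12, 0.11 and 0.18. No Hyp array reached a WT array. The gene mean fell by 0.35 ± 0.05, and it combined 1 probe set at -1.13 ± 0.12 with others at 0.039 ± 0.074 and 0.050 ± 0.089. The probe set that fell carries a shared-probe suffix (_s_at, pooled here with _x_at and _a_at). Without such probe sets Fkbp11 lay at 0.039 (limma adjusted p = 0.781).

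Reticulocalbins are calcium-binding proteins of the ER lumen, and Rcn3 is tied to collagen production. The 4 Hyp arrays read -0.50, -0.70, -0.32 and -0.47 for Rcn3 (replicates 1 to 4), and the 4 WT arrays 0.38, 0.32, 0.32 and 0.38. The WT arrays differed little among themselves, and all were far above the Hyp arrays, of which replicate 2 was the lowest. Rcn3 fell by 0.85 ± 0.07, or 1.80-fold. For Rcn1 the centred values were -0.31, -0.57, -0.11 and -0.36 in Hyp (replicates 1 to 4) and 0.39, 0.12, 0.24 and 0.30 in WT. Here the arrays of each genotype spread more widely, still with no overlap. Rcn1 fell by 0.60 ± 0.09, with probe sets at -0.78 ± 0.07 and, not past the threshold, -0.41 ± 0.13. Rcn2 differed by -0.089 ± 0.058 as a mean of 1 probe set that fell by 0.32 ± 0.055 and another at 0.14 ± 0.10.

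**Figure D3:**
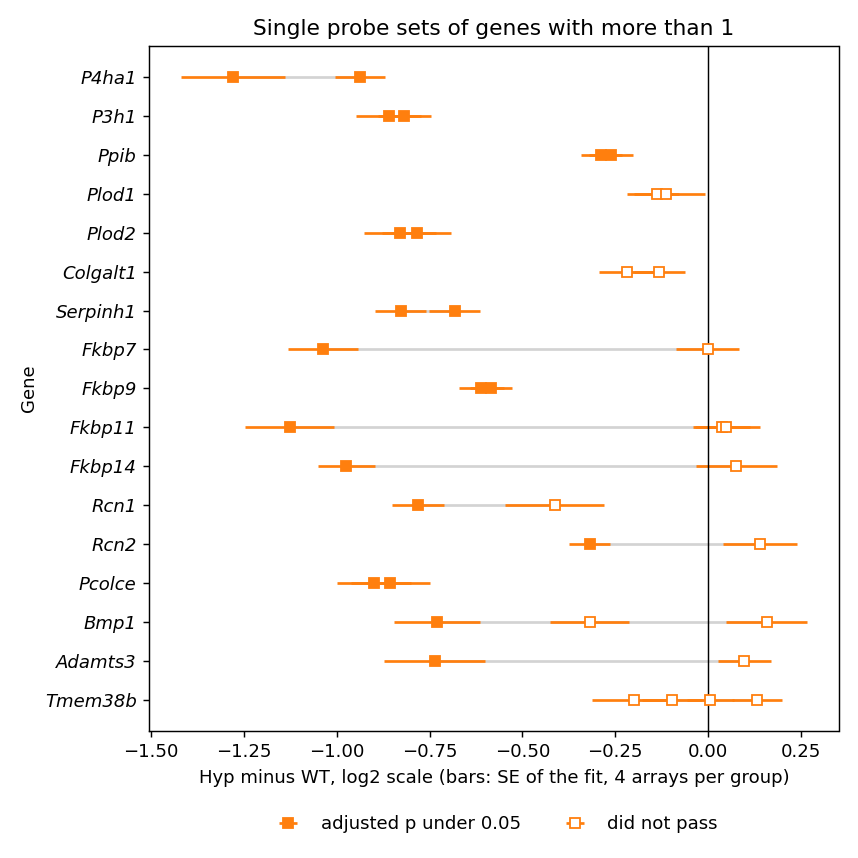
Hyp minus WT difference (log2 scale, horizontal axis) of each single probe set of the 17 genes that have more than 1, with the SE of the fit as bars and 4 arrays per genotype; filled squares passed the adjusted threshold over all probe sets. For 7 genes every probe set fell, for 7 some fell and others did not, and for Plod1, Colgalt1 and Tmem38b none passed.

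On single probe sets 26 of 49 fell (53.1%) and none rose in the limma fit or at an unadjusted p under 0.05. Of all 45037 probe sets, which include 9160 without a symbol and 932 with several, 3.91% were called lower and 3.22% higher. In 7 genes (Fkbp7, Fkbp11, Fkbp14, Rcn1, Rcn2, Bmp1 and Adamts3) exactly 1 probe set fell and the others did not pass. Not passing is not the same as going the other way. The other probe set of Rcn1 lay at -0.41 ± 0.13, and those of Bmp1 at -0.32 ± 0.11 and 0.16 ± 0.11. In the remaining genes the others lay between -0.00041 and 0.14. Whether the probe sets of a gene read different transcript forms, or have signal above background, cannot be told from centred values.

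All 4 measured genes of propeptide cleavage fell. Pcolce encodes the enhancer that speeds removal of the C-propeptide by BMP1. Pcolce had centred values of -0.52, -0.70, -0.25 and -0.40 in Hyp replicates 1 to 4 and of 0.48, 0.25, 0.52 and 0.39 in WT replicates 1 to 4. Hyp replicate 3 and WT replicate 2 marked the edges of a clear gap. Pcolce fell by 0.88 ± 0.10, or 1.84-fold, with 0.86 ± 0.11 and 0.90 ± 0.10 at its probe sets. Pcolce2, its paralog, varied more between arrays. In Hyp replicates 1 to 4 the centred values of Pcolce2 were -0.56, -0.33, -0.17 and -0.58, and in WT replicates 1 to 4 they were 0.17, 0.25, 0.69 and 0.50. WT replicate 3 was the highest and Hyp replicates 1 and 4 the lowest. Pcolce2 fell by 0.81 ± 0.12, or 1.75-fold.

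Both measured proteases fell too. Bmp1, the C-proteinase, was the single gene that passed with overlapping groups, with Hyp arrays from -0.28 to -0.0084 and WT arrays from -0.0087 to 0.30. It fell by 0.30 ± 0.08 over probe sets at -0.73 ± 0.12, -0.32 ± 0.11 and 0.16 ± 0.11, of which the first passed. That probe set carries the suffix _a_at, pooled here with _s_at and _x_at as a shared-probe suffix. Without such probe sets Bmp1 lay at -0.080 (limma adjusted p = 0.580). Whether its probes match other genes was not examined. Bmp1 also lost its call when Hyp replicates 1, 2 or 4 or WT replicates 1, 2 or 3 were left out, with limma adjusted p from 0.0533 to 0.126 without them. Adamts3 encodes an N-proteinase of procollagen. The 4 Hyp arrays read -0.11, -0.058, -0.098 and -0.047 for Adamts3 (replicates 1 to 4), and the 4 WT arrays 0.36, 0.039, 0.36 and 0.21. The Hyp arrays lay close together, while the WT arrays ranged widely. Adamts3 fell by 0.32 ± 0.07 over probe sets at -0.74 ± 0.13 and 0.098 ± 0.071, and it missed the threshold without WT replicate 1 (limma adjusted p = 0.0529) and without both WT replicate 3 and Hyp replicate 2 (0.0548).

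Tmem38b, a cation channel of the ER membrane whose loss causes brittle bone disease, did not pass. Its gene mean differed by -0.040 ± 0.052, and its 4 probe sets ranged from -0.20 to 0.13.

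Among the genes that fell, the same Hyp arrays were often the lowest and the highest, in the same arrays that gave their calls. In WT the shares were nearer to those of the other genes lower in Hyp. Among the 20 genes, Hyp replicate 2 was the lowest Hyp array for 14 (70%) and Hyp replicate 3 the highest for 15 (75%). Over all 28 measured genes, these arrays held the same places for 17 (60.7%) and 18 (64.3%). Among the other 1130 genes lower in Hyp, the same arrays held these places for 35.2% and 34.9%. In WT, replicate 2 was the lowest for 12 of the 20 (60%, against 47.6% of the other genes), and replicates 1 and 3 were the highest for 10 (50%, against 30.1%) and 9 (45%, against 36%). These genes share arrays and vary together, so the counts are a description with no test.

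To show whether the genes share sequence near their starts, RefSeq promoters (assembly GRCm38.p6) were searched over the 250 bases before the annotated start, in 1 window per gene. Windows were matched for 23 of the 31 genes, among them Adamts2 and Adamts14, whose expression was not analysed. The windows below belong to P4ha1, P4ha2, P3h1 and Serpinh1, which fell, and to P4hb, which did not pass. Capitals mark CCACG on either strand, the end of the ER stress response element bound by ATF6 and XBP1. Each is written 5′ to 3′ along the gene.
P4ha1 (chr10:59323046-59323295, plus strand): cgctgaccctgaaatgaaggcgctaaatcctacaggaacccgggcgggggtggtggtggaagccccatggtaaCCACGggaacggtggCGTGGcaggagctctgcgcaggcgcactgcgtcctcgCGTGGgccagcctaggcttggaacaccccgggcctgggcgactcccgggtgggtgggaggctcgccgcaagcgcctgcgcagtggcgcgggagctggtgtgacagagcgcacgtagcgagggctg
P4ha2 (chr11:54100674-54100923, plus strand): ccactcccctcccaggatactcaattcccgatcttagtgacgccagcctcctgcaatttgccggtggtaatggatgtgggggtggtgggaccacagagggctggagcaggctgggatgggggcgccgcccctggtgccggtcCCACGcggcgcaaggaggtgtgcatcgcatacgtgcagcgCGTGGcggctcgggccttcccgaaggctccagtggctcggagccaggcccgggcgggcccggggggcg
P3h1 (chr4:119232665-119232914, plus strand): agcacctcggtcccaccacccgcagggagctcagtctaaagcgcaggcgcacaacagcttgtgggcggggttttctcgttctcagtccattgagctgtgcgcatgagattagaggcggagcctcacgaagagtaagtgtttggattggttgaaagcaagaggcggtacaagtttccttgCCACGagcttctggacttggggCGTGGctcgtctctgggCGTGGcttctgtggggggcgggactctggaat
Serpinh1 (chr7:99353240-99353489, minus strand): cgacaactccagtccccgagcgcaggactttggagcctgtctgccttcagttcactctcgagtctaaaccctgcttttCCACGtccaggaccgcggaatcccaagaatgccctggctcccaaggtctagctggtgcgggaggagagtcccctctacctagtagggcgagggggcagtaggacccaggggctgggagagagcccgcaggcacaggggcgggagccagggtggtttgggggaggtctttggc
P4hb (chr11:120573254-120573503, minus strand): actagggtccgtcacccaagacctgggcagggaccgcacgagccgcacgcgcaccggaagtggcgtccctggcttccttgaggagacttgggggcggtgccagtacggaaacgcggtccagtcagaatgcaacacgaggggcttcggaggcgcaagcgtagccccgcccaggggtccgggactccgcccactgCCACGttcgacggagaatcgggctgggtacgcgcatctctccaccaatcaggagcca

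CCACG, searched on both strands, stood in 14 of 23 windows (60.9%), among them all 5 above, and in 28.2% of the windows of 27025 genes (32.3% of those of protein-coding genes). The GC box GGGCGG stood in 17 of 23 (73.9%), against 33.0% of all and 42.7% of protein-coding windows, and the hypoxia response core ACGTG in 9 of 23 (39.1%), against 16.5% and 17.6%. CCAAT and TATAAA were found in smaller shares than among all windows. CCAAT stood in 6 of 23 (26.1%, against 34.5% of all and 36.5% of protein-coding windows) and TATAAA in 2 of 23 (8.7%, against 13.0% and 12.4%). ACGTG overlaps CCACG on the other strand where the letters run on as CCACGT. The windows of these genes had a median GC content of 60%, against 52% over all genes and 55.2% over protein-coding genes. The full ER stress response element, CCAAT and CCACG set 9 bases apart, stood in none of the 23 windows and in 0.122% of all. TGACGT, the core of the cyclic AMP response element, stood in 3 of 23 (13%), against 6.52% and 7.53%. P4hb, which did not pass, held CCACG too. A match here is a description of letters and shows no binding.

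Related gene lists, also chosen with earlier results of these data known, are given beside these falls. Of all genes, 6.32% were called lower and 6.54% higher, and nothing is read from the counts in each list. Of 11 fibrillar collagen chains, the substrates of these enzymes, 7 fell and 3 rose (median -0.47). Col5a2, Col11a1, Col11a2 and Col5a1 fell by 0.65 ± 0.06, 0.78 ± 0.06, 1.01 ± 0.10 and 0.67 ± 0.08, while Col2a1, the main collagen of cartilage, and Col27a1 rose by 0.78 ± 0.16 and 0.43 ± 0.06. For type I collagen the probe sets disagreed. Col1a2 fell by 0.47 ± 0.08 on a gene mean of probe sets at -1.06 ± 0.20, -0.24 ± 0.06 and, not past the threshold, -0.11 ± 0.05. Col1a1 was called higher by 0.47 ± 0.12 on a gene mean of probe sets at 1.08 ± 0.23 and -0.14 ± 0.06, of which the second did not pass but was lower in every Hyp array than in any WT array. That call was lost without Hyp replicates 2 or 3 or WT replicates 1, 2 or 4. Col3a1 fell by 0.24 ± 0.05.

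Genes of procollagen export fell in the same arrays. Of 17 measured genes of transport from the ER, 12 fell and none rose in the limma fit (none at an unadjusted p under 0.05 either), with a median of -0.38. Of all genes, 6.32% were called lower and 6.54% higher. Kdelr3, a receptor that returns proteins to the ER, fell by 0.85 ± 0.07, the coat proteins Sec24d and Sec23a by 0.72 ± 0.06 each, and the cargo receptor Lman1 by 0.61 ± 0.05. Of 4 measured lysyl oxidases, which cross-link the finished fibres, Lox and Loxl4 fell by 0.78 ± 0.06 and 0.49 ± 0.08 and Loxl1 rose by 0.51 ± 0.05.

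General folding genes of the ER had a median of -0.085. Of 23 measured, 9 fell and none rose in the limma fit, and 1, Calr, was higher at an unadjusted p under 0.05. Pdia5 and Txndc5, of the disulfide isomerase family, fell by 0.57 ± 0.06 and 0.42 ± 0.04, Manf and Dnajc3, of the ER stress response, fell by 0.35 ± 0.06 and 0.24 ± 0.05, and Hspa5, the main HSP70 of the ER, fell by 0.27 ± 0.06. The lectin chaperone Canx and Hyou1, of the HSP70 family, differed by -0.00075 ± 0.053 and -0.0081 ± 0.061. The count of 9 was 5 without WT replicate 1, without WT replicate 4, without both WT replicate 3 and Hyp replicate 2, and with 1 probe set per gene, and Hspa5 lost its call without WT replicate 1 or 4. Whether the lists differ from each other was not tested.

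Of 22 measured relatives of the listed enzymes that act mostly outside collagen synthesis, 5 fell and 1 rose (median -0.033). Cercam, a relative of the galactosyltransferases, fell by 0.50 ± 0.06, and Ppic, a cyclophilin of the secretory pathway, by 0.41 ± 0.07. Calu, a relative of the reticulocalbins, fell by 0.29 ± 0.06 and Fkbp3, a nuclear FKBP, by 0.25 ± 0.06. Egln3, an oxygen-sensing prolyl hydroxylase, rose by 0.20 ± 0.06, a call kept in 3 of 18 alternatives and lost, among others, with median centring and quantile or cyclic loess normalization. The count of 5 was 3 without Hyp replicates 2 or 3 or WT replicates 1 or 4, and without both WT replicate 3 and Hyp replicate 2.

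Genes that supply the hydroxylases with ascorbate, iron and 2-oxoglutarate had a median of 0.025 over 12 measured genes. Slc40a1, the iron exporter, rose by 0.28 ± 0.07 and Idh1 fell by 0.20 ± 0.06. The call of Slc40a1 was lost without WT replicate 1, and that of Idh1 without any 1 of the 8 arrays except Hyp replicate 4.

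Among 12 measured regulators of collagen secretion 4 fell and none rose in the limma fit (1, Tgfb1, was higher at an unadjusted p under 0.05). Creb3l1 encodes OASIS, an ER-bound transcription factor of osteoblasts that acts on collagen and secretory genes. For Creb3l1 the centred values were -0.46, -0.78, -0.32 and -0.39 in Hyp (replicates 1 to 4) and 0.49, 0.32, 0.42 and 0.43 in WT. The Hyp arrays, replicate 2 lowest and replicate 3 highest, were all below the WT arrays. Creb3l1 fell by 0.91 ± 0.09. Sp7, the osteoblast factor osterix, fell by 0.71 ± 0.08, Xbp1, of the unfolded protein response, by 0.34 ± 0.06, and Mbtps2, the protease that releases factors such as OASIS, by 0.22 ± 0.05, a call lost without Hyp replicates 1 or 2 or WT replicate 4. Hif1a and Atf4 differed by -0.15 ± 0.05 each and did not pass. Of 12 measured further genes of osteogenesis imperfecta, which include some of those named above, 10 fell and 1 rose (median -0.59). Ifitm5 fell by 1.22 ± 0.095, Tent5a fell by 0.998 ± 0.099 and Serpinf1 fell by 1.04 ± 0.14. The gene that rose was Col1a1, and without Hyp replicates 2 or 3 or WT replicates 1, 2 or 4 none was called higher.

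**Figure D4:**
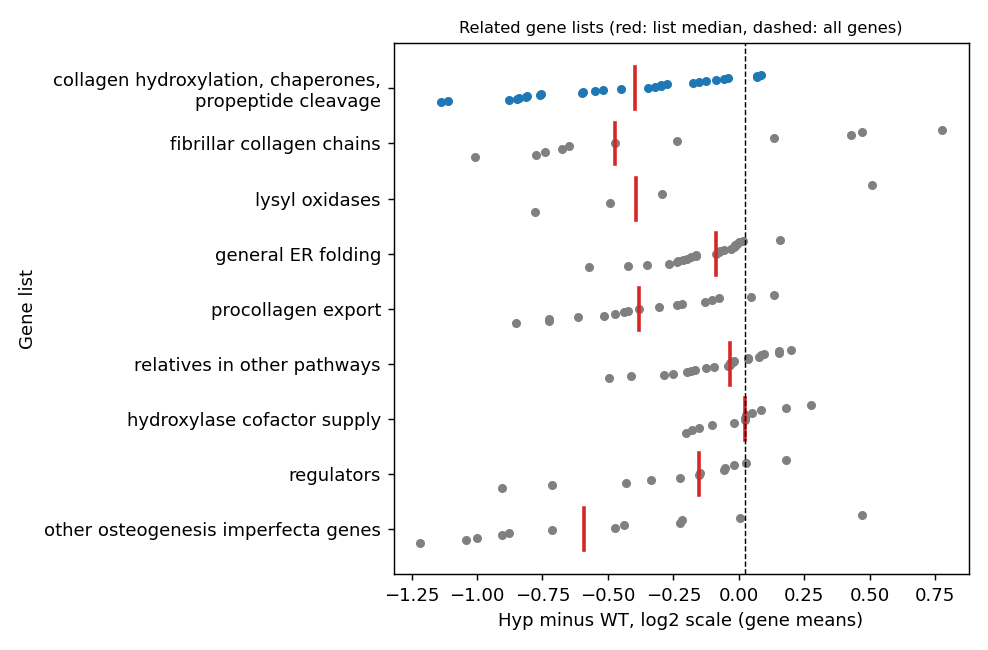
Hyp minus WT difference (log2 scale, horizontal axis) of each gene in the list of collagen-modifying genes (blue) and in related lists (grey), with the list median in red and the median of all genes, 0.025, dashed. The modifying genes and the export genes lie mostly left of 0, with medians of -0.40 and -0.38, and the cofactor genes surround it.

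Markers of cell types in the same arrays moved too. Their lists were also chosen with earlier results known. For the counts here and below, 6.32% of all genes were called lower and 6.54% higher. Of 6 measured osteoblast markers 4 fell, 1 rose and 1 did not pass (median -0.46), and their mean lay between -0.30 and -0.090 in the Hyp arrays and between 0.15 and 0.27 in the WT arrays. The mean of the 28 collagen-modifying genes lay between -0.31 and -0.15 in Hyp and between 0.15 and 0.27 in WT. Ifitm5, Tmem119 and Sp7 fell by 1.22 ± 0.095, 0.75 ± 0.06 and 0.71 ± 0.08, calls kept in 18 of 18 alternatives. Alpl fell by 0.21 ± 0.05, a call lost without Hyp replicates 1 or 4 or WT replicates 1 or 2. Ibsp, at -0.17 ± 0.06, did not pass, and Col1a1 was the marker that rose. The listed markers Bglap, Bglap2 and Runx2 were not matched to a probe set named by exactly 1 symbol and were not analysed here.

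Markers of several other cell types were higher in the arrays where the collagen genes were lower. Of 7 macrophage markers 6 rose, with a list mean from 0.19 to 0.50 in Hyp and from -0.42 to -0.29 in WT. All 7 endothelial markers rose, with a mean from 0.12 to 0.28 in Hyp and from -0.35 to -0.15 in WT. After quantile or cyclic loess normalization 6 did, without Emcn, and 5 did with 1 probe set per gene or without Hyp replicate 3. Without probe sets of shared-probe suffix 4 rose, with no value for Pecam1, Emcn and Eng. Of 9 chondrocyte markers 5 rose and none fell (limma; none lower at an unadjusted p under 0.05 either), with a mean from 0.063 to 0.54 in Hyp and from -0.47 to -0.13 in WT. The count of 5 was 3 without Hyp replicates 1, 2 or 3 or WT replicate 1, where Acan and Matn3 lost their calls, and 2 without both WT replicate 3 and Hyp replicate 2. Of 4 measured erythroid markers 2 rose, with a mean from 0.090 to 0.13 in Hyp and from -0.34 to -0.12 in WT. Without probe sets of shared-probe suffix, 5 macrophage markers and 1 erythroid marker rose, with no value for Adgre1 and Alas2. The part of these cells in the falls of the collagen-modifying genes was not tested.

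Of 9 tendon and fibroblast markers, cells that also make much collagen, 3 fell, 1 rose and 5 did not pass (median -0.29). Mkx and Fmod fell by 0.89 ± 0.09 and 0.86 ± 0.09, and Thbs4 rose by 2.95 ± 0.43. Dcn also fell, a call lost without Hyp replicates 1 or 2 or any single WT array. The list means, which include Thbs4, overlapped between genotypes (-0.12 to 0.10 in Hyp, -0.17 to 0.36 in WT). None of 9 skeletal muscle markers passed in the limma fit or at an unadjusted p under 0.05, and their mean ranged from -1.63 to 0.19 in Hyp and from -0.83 to 2.08 in WT. The median difference of the collagen-modifying genes was -0.42 without WT replicate 3 and -0.39 without both WT replicate 3 and Hyp replicate 2, the arrays with the most and the least muscle signal. The mean of 7 osteoclast markers lay lower in every Hyp array (-0.11 to -0.036) than in any WT array (0.0046 to 0.11), and 1 of them, Dcstamp, passed as lower, a call lost without Hyp replicates 2, 3 or 4 or WT replicate 1. The list means of neutrophil, B cell, adipocyte and osteocyte markers overlapped between the genotypes. The osteocyte mean includes Phex, at -6.67, and Fgf23, at 5.61, which pull it in opposite directions. Its overlap therefore says nothing about osteocyte content. None of 7 neutrophil markers passed in the limma fit or at an unadjusted p under 0.05, and of 6 osteocyte markers, Phex and Fgf23 among them, 2 fell and 2 rose. Of 5 B cell markers 1 fell, and none without Hyp replicate 1 or WT replicates 1, 2 or 4. Of 3 adipocyte markers 1 fell and 1 rose, and neither call held without Hyp replicates 2 or 3 or WT replicates 1, 2 or 4. Without Hyp replicate 1 or WT replicate 3 the first of these calls was lost, and without Hyp replicate 4 the second. Which markers are at or near background cannot be read from centred values.

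**Figure D5:**
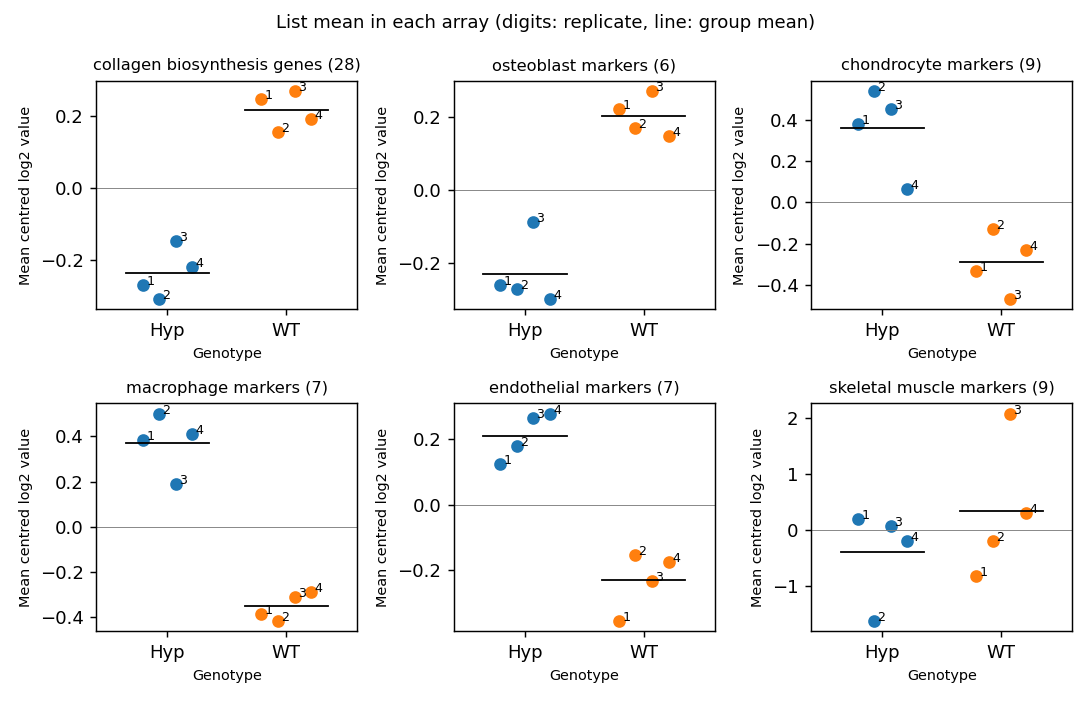
Mean centred log2 value of a gene list (vertical axis, a separate scale in each panel) in each of the 4 Hyp and 4 WT arrays, with the replicate number beside each point and the group mean as a line. The collagen biosynthesis genes and osteoblast markers lie lower in all Hyp arrays, macrophage, endothelial and chondrocyte markers lie higher, and muscle markers overlap, with WT replicate 3 at 2.08.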

How the data were processed

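RMA is the tool named in the submitters' processing notes; its version is not given in the sources used here. The deposited values were taken as log2 values, the scale of RMA; a probe set spanned up to 8.92 units, beyond the 4.8 that log10 of a 16-bit intensity can cover. The median of every probe set over the 8 arrays was 0 (within 5e-07). No label records this centring, which removes levels and signal over background. Of 45101 probe sets 64 controls were left out. The platform annotation gave 1 symbol for 34945 probe sets, several for 932 and none here for 9160, and a RefSeq table (GRCm38.p6) gave current symbols, by gene identifier, for 34741.

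Hyp was compared with WT (4 arrays each) by lmFit and eBayes of limma 3.58.1 under R 4.3.3, 2-sided, on the mean of a gene's probe sets over 18193 genes and on 45037 probe sets, Benjamini-Hochberg adjusted over all of them at 0.05. Differences are Hyp minus WT. The procedure was tested on simulated data. For arrays, their number limits the precision; the median SE of a gene's difference was 0.065. Between any 2 arrays the differences over probe sets had an SD of 0.168 to 0.311, so none was a copy of another. The members and lists were chosen with earlier results of these data known. Every listed gene is named; values of every array are given for those that passed with a difference of at least 0.3 in size and for Serpinh1, P4hb, Ppib and Crtap, and of other lists up to 4 genes per direction. Creb3l1's array values, and Calr, Tgfb1, Hspa5, Canx, Hyou1, Hif1a, Atf4, Serpinf1 and the cell type markers named singly, were chosen after values were seen. Replicate numbers did not pair the samples, and the alternatives are given under the dependence on processing.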

Additional observations from a re-analysis of the deposited data

Results flagged for a closer look

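In 3 of 56 groups of 4 arrays (28 genes in 2 genotypes), 1 array was separated from its group by Dixon's ratio, where chance gives about 1 in 20. P3h3 lay at 0.36 in WT replicate 3, where the other WT arrays lay between 0.048 and 0.10. P3h4 lay at -0.25 in Hyp replicate 3, against -0.53 to -0.50 in the other Hyp arrays. Colgalt2 lay at -0.15 in Hyp replicate 3, against 0.087 to 0.12.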

How the results depend on the processing

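Of the 20 genes that fell, 15 kept their call under every alternative that gave them a value; P3h3, Bmp1, Adamts3, Colgalt1 and Fkbp11 did not, and Fkbp11 changed sign without probe sets of shared-probe suffix (0.039). The genes that fell numbered 15 to 20, and 16 to 19 with single arrays left out; none was called higher. The median of all 28 measured genes, -0.40, became -0.73 with the probe set of largest SD per gene, -0.32 without shared-probe suffixes, -0.60 over the more variable genes and -0.32 over single probe sets, each over other probe sets or genes; with single arrays left out it lay between -0.43 and -0.37. Over all genes, 1150 were lower and 1190 higher; cyclic loess gave 1273 and 879, an adjusted p under 0.01 gave 618 and 407, and one under 0.1 gave 1549 and 1891. Leaving out single arrays gave 605 (without WT replicate 1) to 1437 (without WT replicate 3) genes higher, 1055 to 1975 probe sets lower and 625 to 2125 higher, with the ends at the same arrays; the cause was not tested. With the replicate number as a block, 19 of the genes and 25 of their probe sets were lower, and Colgalt1 lost its call (limma adjusted p = 0.0940). Same-numbered arrays correlated over genes at -0.010, 0.061, 0.18 and 0.080, and replicates 3 and 4 alone matched their own number best, so the numbers were not taken as pairs. A filter on level was not run, since centring removed levels, and signal over background is unknown. Leaving out WT replicate 3 and Hyp replicate 2 together was chosen after seeing the data.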
